A study of Mus musculus with 6 samples.

Results

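The granule genes S100a8, S100a9, Ngp, Camp, Ltf, Lcn2, Mpo, Cpa3 and Mcpt4 were followed in bulk thymus RNA of 2 kinds of F1 mice. Every probe set whose platform annotation gave exactly 1 gene symbol, and that symbol 1 of these 9, was taken. This gave 9 probe sets of 45101, 1 for each gene. S100a8 to Mpo are neutrophil genes, and Cpa3 and Mcpt4 are mast cell genes.

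Neutrophils make their granules in sequence during maturation in the bone marrow. The primary granules form first and hold myeloperoxidase, the product of Mpo, while the secondary granules form later and hold lactoferrin, lipocalin 2, cathelicidin and neutrophilic granule protein, from Ltf, Lcn2, Camp and Ngp. S100a8 and S100a9 encode the partner chains of calprotectin, a calcium- and zinc-binding protein of the neutrophil cytosol. Mature neutrophils circulate in blood and hold little mRNA for most granule proteins. Mast cells mature in tissue and store carboxypeptidase A3, from Cpa3, and chymases such as the product of Mcpt4. The healthy thymus is made up mainly of thymocytes and holds few cells of either kind.

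The study compared basal gene expression in thymus between 2 genotypes of untreated adult female mice. One group was (AKR/J x FVB/NJ)F1, called the AKR cross here, and the other was (DBA/2J x FVB/NJ)F1, called the DBA cross, with 3 arrays each. Every mouse therefore carries 1 FVB/NJ genome, and the groups differ in the other parent. Animals were killed by cervical dislocation under Avertin anaesthesia, and the tissue was snap-frozen. No label states whether each array came from its own animal, so p-values reflect only the variation among these samples, and that variation may be technical.

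Array medians ran from 5.92 to 5.95 on the log2 scale, and array correlations ran from 0.994 to 0.996 within a cross and from 0.984 to 0.989 between crosses. The tissue label was checked with thymocyte markers: each of 10 thymocyte markers (Cd3e, Cd4, Cd8a, Rag1 and others) exceeded the 40th percentile of all values on every array. With 6 arrays in all, the number of arrays sets the precision. Each difference is DBA cross minus AKR cross in log2 units, followed by its standard error (SE). A gene counts as called at an adjusted p under 0.05 (limma, Benjamini-Hochberg adjustment over all tested probe sets). Of 27385 probe sets tested, 27.2% were called, made up of 15.0% with the DBA cross above and 12.2% with the AKR cross above.

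The promoters of the granule genes are shown because 6 of the 9 genes kept nearly the same order of arrays, as described further on. The windows are the 250 bases before the RefSeq start site in assembly GRCm38.p6, read 5′ to 3′ on the gene's own strand, and all 9 genes were matched by symbol. Capitals mark 4 motifs searched on both strands: TTGCNNAA of the C/EBP type, GAGGAA of the PU.1 type, AGATAA of the GATA type and the TATA box letters TATAAA. The 5 windows printed are those of both S100 genes, Ngp, Ltf and, as a mast cell gene, Cpa3. They lie at chr3:90668821-90669070 on the plus strand (S100a8), chr3:90695722-90695971 on the minus strand (S100a9), chr9:110419558-110419807 on the plus strand (Ngp), chr9:111019042-111019291 on the plus strand (Ltf) and chr3:20242182-20242431 on the minus strand (Cpa3).
S100a8: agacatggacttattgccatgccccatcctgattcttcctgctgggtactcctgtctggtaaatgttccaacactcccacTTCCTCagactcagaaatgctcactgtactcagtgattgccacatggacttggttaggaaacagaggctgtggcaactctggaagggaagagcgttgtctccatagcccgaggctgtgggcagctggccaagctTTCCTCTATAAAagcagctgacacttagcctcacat
S100a9: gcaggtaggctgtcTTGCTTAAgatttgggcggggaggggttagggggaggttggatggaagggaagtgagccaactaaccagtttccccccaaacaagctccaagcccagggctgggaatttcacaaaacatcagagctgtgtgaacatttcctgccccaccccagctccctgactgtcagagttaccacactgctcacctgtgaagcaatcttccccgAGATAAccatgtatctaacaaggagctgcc
Ngp: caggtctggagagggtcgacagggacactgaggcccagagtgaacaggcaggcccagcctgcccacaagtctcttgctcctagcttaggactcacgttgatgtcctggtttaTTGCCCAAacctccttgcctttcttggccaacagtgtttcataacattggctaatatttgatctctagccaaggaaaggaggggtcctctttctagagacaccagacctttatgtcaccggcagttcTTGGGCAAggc
Ltf: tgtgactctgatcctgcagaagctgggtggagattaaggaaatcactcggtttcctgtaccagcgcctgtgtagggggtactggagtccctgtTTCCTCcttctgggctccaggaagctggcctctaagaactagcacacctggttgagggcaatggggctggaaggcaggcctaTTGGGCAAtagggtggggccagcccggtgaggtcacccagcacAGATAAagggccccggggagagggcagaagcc
Cpa3: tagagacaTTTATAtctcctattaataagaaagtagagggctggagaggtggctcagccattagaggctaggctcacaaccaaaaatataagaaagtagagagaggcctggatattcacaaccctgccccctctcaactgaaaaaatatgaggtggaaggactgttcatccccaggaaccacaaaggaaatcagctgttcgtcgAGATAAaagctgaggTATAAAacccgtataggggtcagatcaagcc

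The C/EBP letters were found in the windows of S100a9, Ngp, Ltf and Lcn2, which is 4 of 9 genes, where 9.56% of 32851 RefSeq promoter windows of this length hold them. Ngp had 2 such matches, at -138 and -11 from its start site. S100a8, Camp, Mpo, Cpa3 and Mcpt4 had no match to these letters in the window. The PU.1 letters were found for S100a8, Ltf, Lcn2 and Mpo (23.3% of all windows), and the GATA letters for S100a9, Ltf and Cpa3 (9.99% of all windows). The TATA letters were found for S100a8, Cpa3 and Mcpt4 (12.4% of all windows), in each case with a copy that begins between -32 and -30 from the start site. In the printed window of S100a8, a PU.1 match is followed directly by the TATA letters, and no matches overlap in these windows. These matches describe letters in the reference strain and do not show binding. S100a8 and S100a9 are neighbours on chromosome 3 in the RefSeq gene table, and Ngp, Camp and Ltf lie on chromosome 9 without being adjacent.

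The calprotectin genes showed the largest differences of the 9. S100a8 stood at 8.94, 9.55 and 9.80 across AKR replicates 1, 2 and 3, against 10.39, 10.58 and 10.21 across DBA replicates 1, 2 and 3. All 3 DBA arrays were above all 3 AKR arrays, and the lowest DBA array was 0.41 above the highest AKR array. The means were 9.43 ± 0.44 and 10.39 ± 0.19 (SD, n = 3 each), and S100a8 was 1.95-fold higher in the DBA cross (0.96 ± 0.19, SE, limma adjusted p = 0.00614). S100a9, which encodes its partner, stood at 8.23, 8.98 and 9.22 across the AKR replicates, against 9.85, 9.95 and 9.55 across the DBA replicates. The crosses again did not overlap, and S100a9 was 1.96-fold higher in the DBA cross (0.97 ± 0.22, SE, limma adjusted p = 0.0112). The 95% confidence interval of the fold was 1.45 to 2.63 for S100a8 and 1.39 to 2.77 for S100a9. The S100a8 probe set is of a type that can match transcripts of several genes, and that of S100a9 is not.

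AKR replicate 1 was the lowest array for both genes, 0.74 below the mean of the other AKR arrays for S100a8 and 0.86 below it for S100a9. Without that array the differences were 0.72 (adjusted p = 0.00379, limma) and 0.69 (adjusted p = 0.00671, limma). S100a9 was near the threshold without DBA replicate 2 (adjusted p = 0.0482, limma) and with robust variance (adjusted p = 0.0494, limma). Neither gene passed without sharing of variance between probe sets (limma adjusted p = 0.0986 for S100a8 and 0.125 for S100a9). In bulk tissue RNA, fewer cells of a type and less RNA per cell cannot be told apart.

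**Figure D1:**
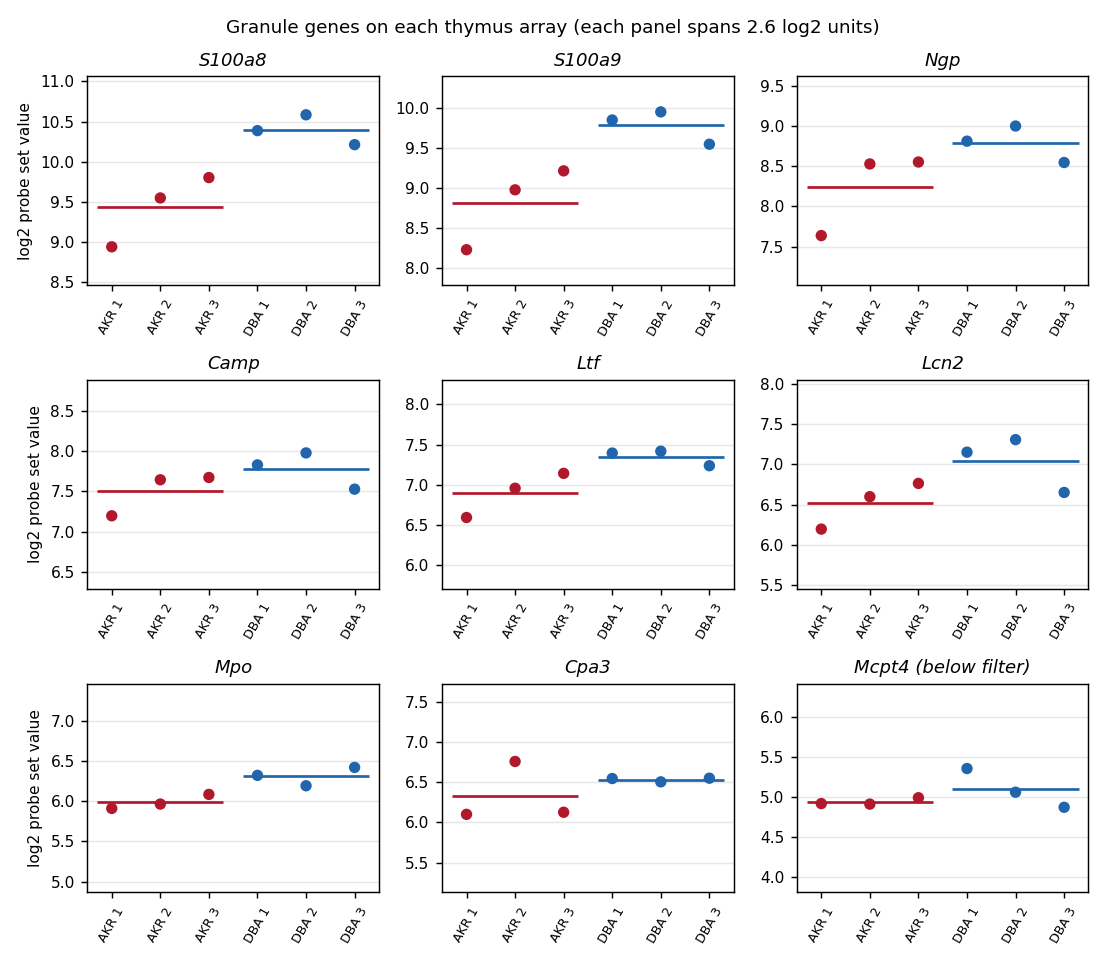
Each panel plots the log2 probe set value of 1 granule gene (vertical axis) on the 6 thymus arrays (horizontal axis), with AKR cross arrays in red, DBA cross arrays in blue and a line at each cross mean (n = 3). All 3 DBA arrays lie above all 3 AKR arrays for S100a8, S100a9, Ltf and Mpo, and AKR replicate 1 is the lowest array in every panel except that of Mcpt4.

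The secondary granule genes had smaller differences in the same direction, and only that of Ltf passed the test. Ltf, which encodes the iron-binding protein lactoferrin, stood at 6.59, 6.96 and 7.14 across the AKR replicates, against 7.39, 7.42 and 7.24 across the DBA replicates. The crosses were separated by 0.10, and Ltf was 1.37-fold higher in the DBA cross (0.45 ± 0.14, SE, limma adjusted p = 0.0387). Ltf no longer passed when AKR replicate 1 was left out (0.30, adjusted p = 0.0971, limma), when AKR replicate 2 was left out (adjusted p = 0.0766) or when any 1 of the DBA arrays was (adjusted p from 0.0596 to 0.110).

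Lcn2 encodes lipocalin 2, which binds bacterial siderophores and withholds iron from bacteria. It stood at 6.19, 6.60 and 6.76 across the AKR replicates, against 7.15, 7.31 and 6.65 across the DBA replicates. DBA replicate 3 fell below AKR replicate 3, so the crosses overlapped, and the difference of 0.52 ± 0.19 did not pass (adjusted p = 0.0722, limma). Lcn2 passed without DBA replicate 3 (0.71, adjusted p = 0.0243, limma).

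Ngp encodes a cystatin-like and cathelicidin-like granule protein. It stood at 7.64, 8.53 and 8.55 across the AKR replicates, against 8.81, 9.0 and 8.55 across the DBA replicates. AKR replicate 1 was 0.90 below the mean of the other AKR arrays, while AKR replicate 3 and DBA replicate 3 were nearly level. The difference of 0.55 ± 0.23 did not pass (adjusted p = 0.104, limma), and without AKR replicate 1 it was 0.25.

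Camp encodes the precursor of the antimicrobial peptide CRAMP, the mouse counterpart of human LL-37. It stood at 7.20, 7.65 and 7.67 across the AKR replicates, against 7.83, 7.98 and 7.53 across the DBA replicates. DBA replicate 3 was below AKR replicates 2 and 3. The difference of 0.27 ± 0.15 did not pass (adjusted p = 0.215, limma, 95% confidence interval -0.07 to 0.62). It was 0.12 without AKR replicate 1 and 0.17 without DBA replicate 2.

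Mpo, the primary granule gene of the set, lay between the 49.9 and the 56.5 percentile of its arrays and had the smallest difference of the 4 called genes. It stood at 5.91, 5.97 and 6.09 across the AKR replicates, against 6.32, 6.19 and 6.42 across the DBA replicates. The crosses did not overlap, with a gap of 0.11, and Mpo was 1.25-fold higher in the DBA cross (0.33 ± 0.10, SE, limma adjusted p = 0.0432). The call was near the threshold: it was lost after quantile normalization (adjusted p = 0.0516, limma), after median scaling (adjusted p = 0.0530), with no filter (adjusted p = 0.0630), with array weights (adjusted p = 0.0582) and without any 1 array other than DBA replicate 2 (adjusted p from 0.0524 to 0.130).

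The mast cell granule genes did not pass the test. Cpa3 stood at 6.10, 6.76 and 6.13 across the AKR replicates, against 6.55, 6.51 and 6.55 across the DBA replicates. AKR replicate 2 was the highest of all 6 arrays and the other AKR arrays were the lowest, while the DBA arrays spanned only 0.05. The difference was 0.21 ± 0.17 (adjusted p = 0.384, limma, 95% confidence interval -0.17 to 0.58). The value turned on single arrays: without AKR replicate 2, Cpa3 differed by 0.42 and passed (adjusted p = 0.0247, limma), and it differed by 0.09 without AKR replicate 1 (adjusted p = 0.742) and by 0.10 without AKR replicate 3 (adjusted p = 0.704).

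Mcpt4, which encodes a chymase of connective tissue mast cells, exceeded the 40th percentile on 1 of 6 arrays only and was left out of the test. It stood at 4.92, 4.91 and 4.99 across the AKR replicates, against 5.35, 5.06 and 4.87 across the DBA replicates. With no filter on dim probe sets its difference was 0.16 ± 0.13 (adjusted p = 0.455, limma).

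**Figure D2:**
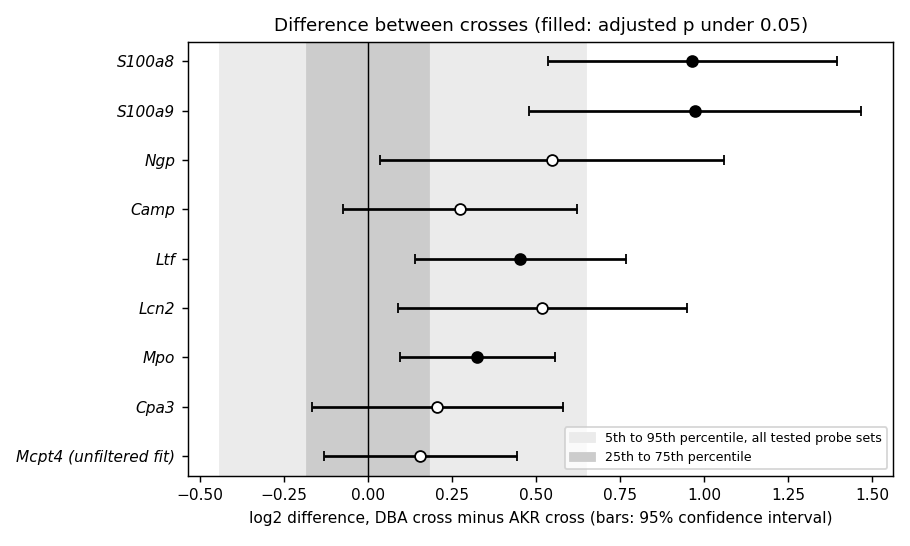
The log2 difference of each granule gene, DBA cross minus AKR cross (horizontal axis), is shown with its 95% confidence interval from limma, and filled points mark an adjusted p under 0.05. The grey bands are the ranges of the differences of all tested probe sets, and the points of S100a8 and S100a9 lie to the right of the 95th percentile, which is at 0.65.

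Of the 8 genes tested, 4 were called, all of them higher in the DBA cross, beside 15.0% of all tested probe sets called in that direction. The 4 called genes are also the ones whose crosses did not overlap, where 22.3% of tested probe sets did not overlap with the DBA cross higher. All 9 genes had the higher mean in the DBA cross, and the median difference of the 8 tested genes was 0.49, beside a median of -0.03 over 12855 tested genes. Without AKR replicate 1 the median of these 8 differences was 0.29. The count of 4 fell to 2, S100a8 and S100a9, without AKR replicate 1 or without DBA replicate 1. No gene changed direction under any of the scalings.

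S100a8, S100a9, Ngp, Camp, Ltf and Lcn2 varied together from array to array. For all 6 genes the order within the AKR cross was replicate 1, then replicate 2, then replicate 3 from low to high, and within the DBA cross it was replicate 3, replicate 1, replicate 2. S100a8, S100a9 and Ltf had the same order over all 6 arrays. The orders within the crosses were not particular to these genes. The mean levels of other lists read below, such as cornified epithelium, thymic epithelium and mast cell receptors and mediators, had both orders too. The share of all tested probe sets with both orders was not counted. AKR replicate 1 was the lowest array for 8 of the 9 genes, where it was the lowest for 15.0% of all tested probe sets. Deviations from the cross means, which leave the difference between crosses out, correlated with Pearson's r from 0.862 to 0.993 over the 15 pairs of these 6 genes (6 arrays, as a description). The size of the swing differed between genes: the range over the 6 arrays was 1.72 for S100a9, 1.64 for S100a8, 1.37 for Ngp, 1.11 for Lcn2, 0.83 for Ltf and 0.78 for Camp.

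Correlations over the 6 arrays were computed for all 36 gene pairs and tested with an exact permutation test, two-sided, with Benjamini-Hochberg adjustment over the 36 pairs. No pooled value is given for pairs in which both genes separated the crosses. The permutations ran over all 6 arrays regardless of cross. A shared difference between crosses therefore counts toward r, rho and p, also for genes that did not separate the crosses. Ngp and Camp, which did not separate them, had r = 0.966 (exact permutation p = 0.00417, adjusted 0.0167) and Spearman's rho = 0.943 (exact permutation p = 0.0167, adjusted 0.050), and r was 0.857 without the 2 arrays farthest from the median of Ngp. Ngp and Lcn2 had r = 0.927 (exact permutation p = 0.00139, adjusted 0.0125) and rho = 1.0 (exact permutation p = 0.00278, adjusted 0.0250), and r was 0.977 without those 2 arrays. S100a8 and Camp had r = 0.867 (exact permutation p = 0.0278, adjusted 0.0667) and rho = 0.829 (exact permutation p = 0.0583, adjusted 0.140). The r of S100a8 with Camp was 0.298 without the 2 arrays farthest from the median of S100a8. The deviations of this pair from the cross means correlated at 0.926 over all 6 arrays.

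Mpo, Cpa3 and Mcpt4 did not share this order. Within the DBA cross Mpo was highest on replicate 3, the array lowest for the 6 other neutrophil genes. The deviations of Mpo correlated with those of the 6 genes at r from -0.201 to 0.302, those of Cpa3 at 0.136 to 0.443 and those of Mcpt4 at 0.246 to 0.555. None of the 18 pairs of these 3 genes with the 6 had an adjusted exact permutation p under 0.05. Cpa3 and Mcpt4, the mast cell pair, had r = 0.132 (exact permutation p = 0.799, adjusted 0.799) and rho = -0.371 (exact permutation p = 0.497, adjusted 0.617) over the 6 arrays, and r was -0.407 without the 2 arrays farthest from the median of Cpa3.

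**Figure D3:**
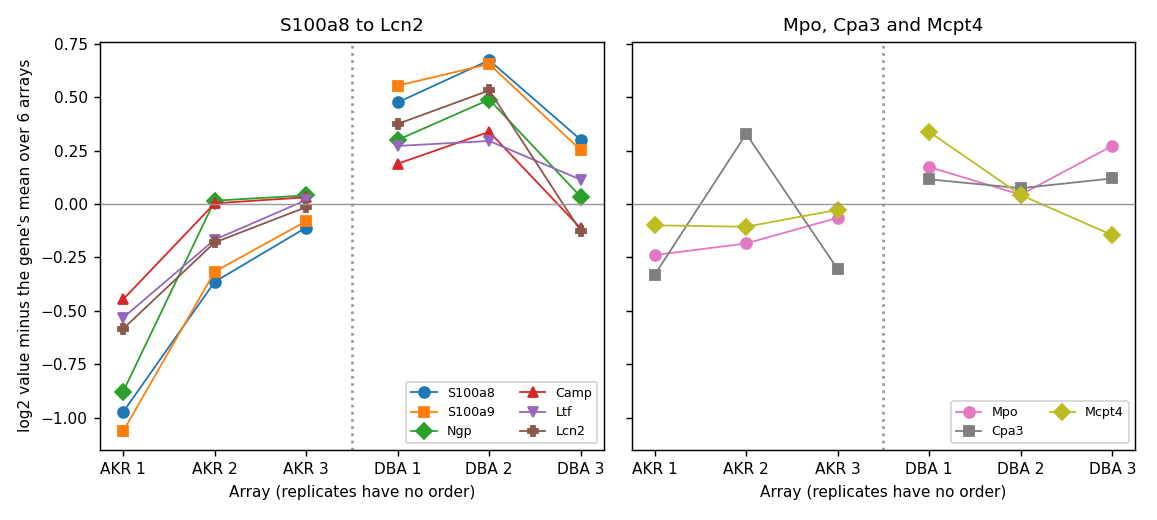
The log2 value of each gene minus its mean over 6 arrays (vertical axis) is shown by array (horizontal axis), with lines joining the values of 1 gene within a cross to guide the eye. S100a8, S100a9, Ngp, Camp, Ltf and Lcn2 (left) are lowest on AKR replicate 1 and highest on DBA replicate 2, and Mpo, Cpa3 and Mcpt4 (right) follow other orders.

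Among 1158 other tested genes with an SD of at least 0.3 over the arrays, the 8 most like the mean profile of the 6 neutrophil genes were Dio1, Max, Il3ra, Chil3, Krt77, Cwc27, Dlg5 and B330016D10Rik, with Pearson's r from 0.959 to 0.987 over 6 arrays. Of these, Chil3 is a known neutrophil and macrophage gene, and it had r = 0.978. Il3ra encodes the alpha chain of the interleukin 3 receptor, and Krt77 encodes a keratin. The genes most like Cpa3 had lower values of r, from 0.783 to 0.894. They were Pdk4, Clec7a, Irs1, Dsg1a, Hp, Rsad2, Pdgfra and Gm6958.

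Genes of a list named for neutrophil secondary and tertiary granules went both ways. The list also holds genes that are not particular to granules or to neutrophils, such as Padi4 and Lyz2. Of 12 genes tested, 3 passed with the DBA cross above, 4 passed with the AKR cross above and 5 did not pass. The median difference of the 12 was 0.02. Among all tested genes, 11.9% were called with the DBA cross above and 13.1% with the AKR cross above. Olfm4, which encodes olfactomedin 4 of a subset of neutrophils, stood at 5.57, 5.94 and 5.92 across the AKR replicates, against 6.87, 7.20 and 6.94 across the DBA replicates. The crosses were far apart, and Olfm4 was 2.28-fold higher in the DBA cross (1.19 ± 0.13, SE, limma adjusted p = 0.000336). Chil3, which encodes the chitinase-like protein Ym1, was 2.10-fold higher (1.07 ± 0.25), with values of 4.17, 5.17 and 5.27 across the AKR replicates, against 5.87, 6.13 and 5.81 across the DBA replicates. AKR replicate 1 was thus low for Chil3 too, and 2 AKR arrays were below the 40th percentile. Hp, which encodes haptoglobin, was 1.70-fold above the AKR cross (0.76 ± 0.24), and its arrays overlapped between crosses.

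In the same list, 4 genes were called higher in the AKR cross. Cyba, which encodes p22phox of the NADPH oxidase, was 1.33-fold higher there, and Lyz2, a lysozyme gene of neutrophils and macrophages, 1.21-fold. Slpi, a protease inhibitor gene, was 1.27-fold higher, and Padi4, the gene of the enzyme that citrullinates histones, 1.21-fold. Hp, Slpi and Padi4 are named after their values were seen. The count of 7 called genes of this list dropped to 4 when AKR replicate 3, DBA replicate 1 or DBA replicate 3 was left out, and to 3 when DBA replicate 2 was.

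Of the primary granule proteases, Elane (-0.07 ± 0.12), which encodes neutrophil elastase, Prtn3 (-0.09 ± 0.10), which encodes proteinase 3, and Ctsg (0.24 ± 0.14), which encodes cathepsin G, did not pass, and their difference from Mpo (0.33 ± 0.10) was not tested. Of 4 genes tested in this list, 1 was called, beside 11.9% of all tested genes called with the DBA cross above. The called gene was Serpinb1a, which encodes an inhibitor of these proteases and was 1.51-fold higher in the DBA cross (0.60 ± 0.09, SE, limma adjusted p = 0.00156).

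Among secreted and cytosolic genes of neutrophils, 3 of 4 tested passed, each with the DBA cross above, beside 11.9% of all tested genes. The median difference of the 4 was 0.71. Anxa1, which encodes the anti-inflammatory protein annexin A1, was 1.89-fold higher (0.92 ± 0.09), Wfdc21 was also 1.89-fold higher (0.92 ± 0.16) and Chil1, a chitinase-like gene, was 1.41-fold higher (0.50 ± 0.13). Anxa1 stood at 9.51, 9.71 and 9.75 across the AKR replicates, against 10.45, 10.73 and 10.55 across the DBA replicates, so AKR replicate 1 stood less apart for Anxa1 than for S100a8.

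The surface and signalling genes of neutrophils had 0 of 9 calls by limma, with 4 at an unadjusted p under 0.05. The count of calls was 1 when AKR replicate 2 or DBA replicate 1 was left out, after quantile normalization and with the replicate number as a block. It was also 1 without probe sets that can match several transcripts, and with the probe sets of each gene averaged. Another probe set of Il1rn, which encodes the interleukin 1 receptor antagonist, was called higher in the DBA cross (0.56 ± 0.11), and its brightest probe set did not pass (0.29 ± 0.11). Csf3r, which encodes the receptor of granulocyte colony-stimulating factor, differed by -0.17 ± 0.12. It was above the 40th percentile on 5 of 6 arrays. Cxcr2, which encodes the main chemokine receptor of mature neutrophils, lay below it on all 6 arrays, at 3.94 to 4.45.

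Of 9 transcription factor genes of myeloid cells, 0 were called by limma, with 2 at an unadjusted p under 0.05. Cebpa (-0.12 ± 0.20), which encodes a C/EBP factor of granulocyte development, and Spi1 (-0.22 ± 0.09), which encodes PU.1, did not pass. Other probe sets of 2 of these genes were called in opposite directions, Cebpb higher in the AKR cross (-0.39 ± 0.13) and Runx1 higher in the DBA cross (0.49 ± 0.12), while their brightest probe sets did not pass (-0.07 ± 0.10 and -0.04 ± 0.16). Of 4 tested genes of neutrophil attractants and growth factors, 1 was called, beside 11.9% of all tested genes called with the DBA cross above. The called gene, Cxcl2, which encodes a CXCR2 ligand, was 1.52-fold higher in the DBA cross (0.61 ± 0.13), with 2 arrays below the 40th percentile. That count was 2 without AKR replicate 3. Of 4 tested receptors of secreted granule proteins, such as Tlr4 for calprotectin, 0 were called by limma and 0 had an unadjusted p under 0.05.

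Further mast cell genes were read by list. Of 4 tested proteases of mast cells and basophils, Tpsb2, a tryptase gene (-0.02 ± 0.12), and Cma1, a chymase gene (0.05 ± 0.15), did not pass. Mcpt2, a chymase gene of mucosal mast cells, was at 4.97, 5.12 and 4.75 in the AKR cross and at 5.39, 5.45 and 5.53 in the DBA cross. Only its DBA arrays exceeded the 40th percentile, so the filter let it in through the cross where it was high and its call is not counted. This left 0 of 3 called by limma, with 0 at an unadjusted p under 0.05. Of the 8 tested receptor and mediator genes that did not enter through 1 cross alone, 3 passed, each with the DBA cross above. Among all tested genes, 11.9% were called in that direction. Hdc, the enzyme gene of histamine synthesis, was 1.57-fold higher in the DBA cross (0.65 ± 0.08, SE, limma adjusted p = 0.000652), at 7.32, 7.37 and 7.33 against 8.08, 7.98 and 7.92. Its other probe set was also called higher in the DBA cross (1.06 ± 0.12). Slc18a2, which encodes a vesicular monoamine transporter, was 1.43-fold higher (0.52 ± 0.11), and Srgn, which encodes the granule proteoglycan serglycin, was 1.17-fold higher (0.23 ± 0.05). Tph1, an enzyme gene of serotonin synthesis, was at 5.04, 5.05 and 5.18 in the AKR cross and at 5.31, 5.52 and 5.60 in the DBA cross, and it entered the test only through the DBA arrays.

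Fcer1a and Ms4a2, which encode the alpha and beta chains of the high-affinity IgE receptor, lay below the 40th percentile on all 6 arrays, at 3.36 to 3.71 and at 3.86 to 4.09. Fcer1g, which encodes the gamma chain that other myeloid cells also use, was above it on all 6 arrays. The difference of Fcer1g did not pass (-0.30 ± 0.10, adjusted p = 0.0544, limma). Fcer1g passed after quantile normalization, after median scaling, with robust variance and with the filter at the 60th percentile. It also passed with the replicate number as a block and without DBA replicate 2. Kit, the receptor gene of stem cell factor and also a gene of early thymocytes, was above the 40th percentile on all 6 arrays too and did not pass (0.15 ± 0.11). Il4, the interleukin 4 gene, was at 4.75, 4.79 and 4.82 in the AKR cross, all below the 40th percentile, and at 5.91, 6.39 and 5.69 in the DBA cross. It too entered the test only through the DBA arrays, and of the other 3 tested growth factor genes 0 were called by limma, with 1 at an unadjusted p under 0.05. That gene was Kitl, which encodes stem cell factor (0.26 ± 0.09). Kitl passed without DBA replicate 2 and with the replicate number as a block. It also passed in the fits with robust or untrended variance and with the filter at the 60th percentile. Other tested probe sets of Kitl did not pass (0.20 ± 0.09 and -0.06 ± 0.12).

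**Figure D4:**
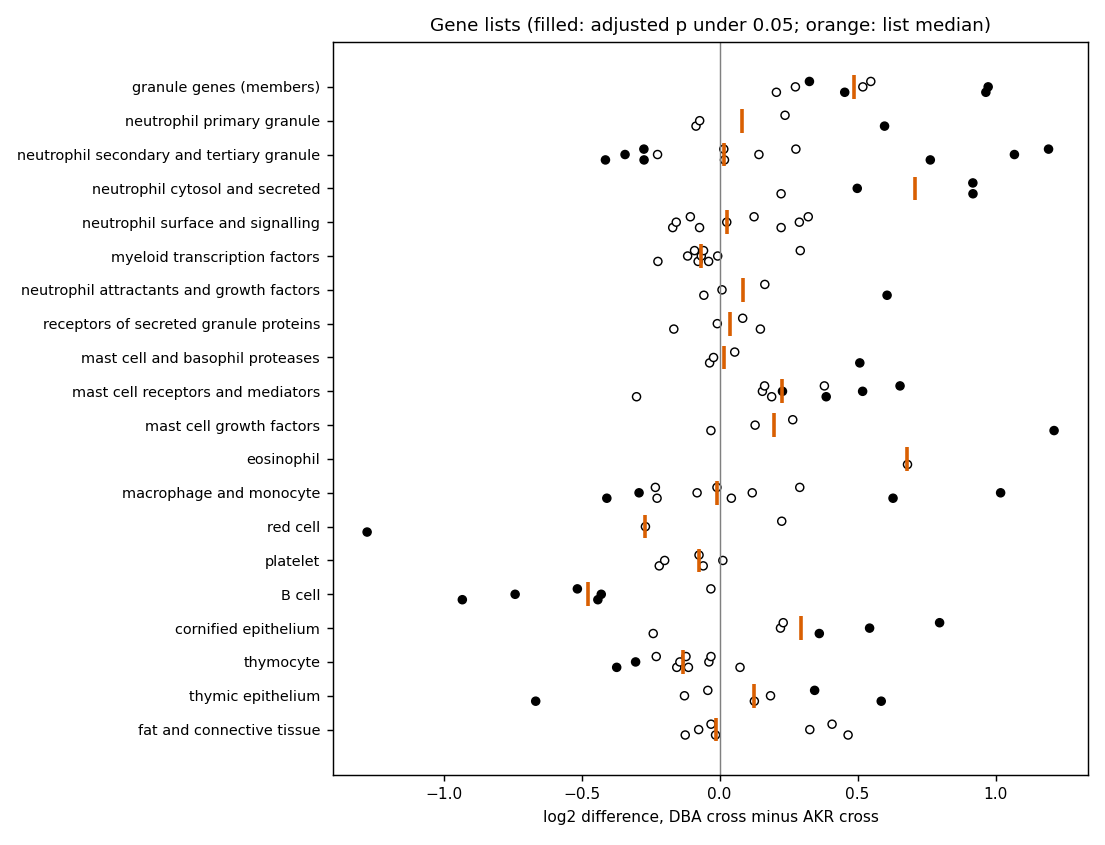
Each point is the log2 difference, DBA cross minus AKR cross (horizontal axis), of 1 tested gene in the list named at the left, filled where the adjusted p was under 0.05, with the list median in orange. The granule genes lie to the right of 0 in full, the secondary and tertiary granule list spreads to both sides, and the B cell list lies to the left; Mcpt2, Tph1, Il4 and Hba-a2 are filled although they entered the test through 1 cross alone.

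Markers of other cell types were read on the same arrays, and their part in the result was not tested. Of 6 cornified epithelium markers tested, whose cells can also express S100a8, S100a9 and Lcn2, 3 passed, each with the DBA cross above: Krtdap (0.80 ± 0.12), Krt10 (0.54 ± 0.11) and Sprr1a (0.36 ± 0.12). Among all tested genes, 11.9% were called with the DBA cross above and 13.1% with the AKR cross above. The mean level of the 6 cornified markers ran from 7.23 to 7.53 on the AKR arrays, lowest on replicate 1, and from 7.51 to 7.78 on the DBA arrays, lowest on replicate 3. Ivl and Flg, which mark terminal cornification, lay below the 40th percentile on all 6 arrays. Of 11 macrophage and monocyte markers tested, 2 were higher in each cross, and their mean level ran from 8.26 to 8.32 on the AKR arrays and from 8.37 to 8.38 on the DBA arrays. Cd163, a scavenger receptor gene of macrophages, was higher in the DBA cross (1.02 ± 0.18), and C1qc was higher in the AKR cross (-0.29 ± 0.07). The probe sets of Ccr2, a chemokine receptor gene of monocytes, disagreed: the brightest did not pass (-0.23 ± 0.09), and 3 others were called higher in the DBA cross (0.81 ± 0.11, 1.26 ± 0.12 and 0.59 ± 0.12). With the probe sets of each gene averaged, 6 genes of this list were called.

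Blood genes were read in the same way. Of 3 red cell genes tested, Hba-a2, an alpha globin gene, entered only through the AKR arrays, so no list mean is given. Its values were 6.45, 6.34 and 6.17 in the AKR cross and 4.77, 5.14 and 5.21 in the DBA cross. Of the other 2 red cell genes, 0 were called by limma and 0 had an unadjusted p under 0.05. Hbb-b2, a beta globin gene, differed by -0.27 ± 0.14. Alas2, an enzyme gene of haem synthesis, stood at 8.18, 6.71 and 7.28 across the AKR replicates, against 7.72, 7.37 and 7.75 across the DBA replicates. It was highest on AKR replicate 1, the array lowest for the neutrophil genes, and differed by 0.22 ± 0.30. Without that array Alas2 was higher in the DBA cross by 0.62 (adjusted p = 0.0415, limma). Of 5 platelet genes tested, 0 were called by limma and 0 had an unadjusted p under 0.05, and their mean level ran from 6.32 to 6.57 on the AKR arrays and from 6.24 to 6.37 on the DBA arrays.

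Some thymocyte and thymic epithelial genes also differed between the crosses. Of 10 thymocyte markers, 2 were called, Cd3e (-0.30 ± 0.04) and Thy1 (-0.37 ± 0.05), both with the AKR cross above. The share of all tested genes called in that direction was 13.1%. Other probe sets of Themis (0.29 ± 0.08) and Dntt (-1.57 ± 0.17) were called in opposite directions. The brightest probe sets of Themis (-0.04 ± 0.06) and Dntt (-0.03 ± 0.04) did not pass. The mean level of the list ran from 11.71 to 11.84 on the AKR arrays and from 11.61 to 11.64 on the DBA arrays. This was the opposite direction to the granule genes. Of 7 thymic epithelial markers, Epcam (0.59 ± 0.09) and Aire (0.34 ± 0.09) were higher in the DBA cross and Foxn1 (-0.67 ± 0.12) was higher in the AKR cross. Among all tested genes, 11.9% were called with the DBA cross above and 13.1% with the AKR cross above. The other probe sets of Epcam (-0.15 ± 0.12) and Foxn1 (-0.33 ± 0.13) did not pass. Without probe sets that can match several transcripts, 1 gene of this list was called. The mean level of these 7 ran from 9.53 to 9.67 on the AKR arrays, lowest on replicate 1, and from 9.60 to 9.68 on the DBA arrays, lowest on replicate 3.

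Of 6 B cell genes tested, 5 were called higher in the AKR cross, beside 13.1% of all tested genes. The mean level of the 6 ran from 7.35 to 7.49 on the AKR arrays and from 6.84 to 7.01 on the DBA arrays, the opposite direction to the granule genes. The count of 5 was 3 without AKR replicate 1, without AKR replicate 3 or without DBA replicate 3. Of 6 eosinophil genes on the array, 5 lay below the 40th percentile on all 6 arrays. The eosinophil gene tested, Prg2, which encodes major basic protein, did not pass (0.68 ± 0.32). Of 7 fat and connective tissue genes tested, 0 were called by limma, with 1 at an unadjusted p under 0.05, and 1 was called when DBA replicate 1 was left out. Another probe set of Fabp4 was called higher in the DBA cross (0.85 ± 0.24), and its brightest probe set did not pass (0.47 ± 0.27). The mean level of the 7 genes ran from 8.80 to 9.33 on the AKR arrays, highest on replicate 2, where Cpa3 was highest, and from 9.01 to 9.61 on the DBA arrays.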

How the data were processed

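Thymus RNA, 3 arrays per cross, was extracted with Trizol and labelled with biotin for Affymetrix arrays, per the labels' protocols. The deposited values are on a log2 scale, as the authors left them, for 45101 probe sets. The submitters' processing notes list MAS5 and RMA, and which of these made the values was not stated there.

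The log2 values entered the fit as deposited. After removal of 64 control probe sets, 27385 exceeded the 40th percentile of an array on 3 or more arrays and were tested two-sided in limma 3.58.1 (R 4.3.3) with lmFit and trended eBayes. A gene in a list was represented by its brightest tested probe set with 1 symbol, named from the platform annotation. The code was tested on made-up values before use. Python 3.11.15 and matplotlib 3.10.9 drew the figures.

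The members and the gene lists were chosen with earlier results of these data known. The rule for named genes takes all 9 members, up to 4 called genes with the smallest adjusted p from each list (or 2 by level), and the 8 genes most like the neutrophil profile and Cpa3, and only some are printed. Other uncalled or dim genes of the lists, such as Elane and Fcer1a, were named for their known roles with their values already seen. The alternatives were 2 filters, 2 normalizations, 3 variance models, array weights, a block on replicate number, a floor at the 20th percentile, removal of probe sets that can match several transcripts, averaging the probe sets of each gene, and leaving out each array in turn.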

Additional observations from a re-analysis of the deposited data

How the results depend on the processing

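All granule genes tested kept their direction in every setting run. The count of 4 called granule genes stayed within 1.5 times in the other settings, and was 0 without sharing of variance between probe sets (limma, with 3 of 8 at an unadjusted p under 0.05) and from 2 to 3 with 1 array left out. Without sharing of variance, 3544 probe sets were called in place of 7449, and 16 list genes in place of 36; fewer degrees of freedom per probe set lie behind this setting by construction. With 1 array left out these counts ran from 5161 to 6317 and from 28 to 32. The counts of list genes in this section, 36 in the main fit, include Mcpt2, Tph1, Il4 and Hba-a2 where these were called. Those genes entered the test through 1 cross alone, so the list counts are not read as results about the lists. The main fit did not pair the arrays by replicate number. The deviations of same-numbered arrays correlated at 0.389, 0.0697 and 0.371, and those of differently numbered arrays from -0.375 to 0.0748. Of the 6 arrays, 5 correlated best with their own number, and whether the numbers stand for a pairing was not tested. With the replicate number as a block, 6 granule genes were called, Ngp (adjusted p = 0.0310, limma) and Lcn2 (adjusted p = 0.0392) in addition, with 9839 probe sets and 46 list genes. Of 342 counts of single lists over the settings, 38 moved by over 1.5 times, 21 to a lower and 17 to a higher count. The S100a8, Lcn2 and Mcpt4 probe sets can match several transcripts and drop out where such probe sets are removed. Mcpt4 was too dim for any filtered setting, and Mpo and Cpa3 were too dim for the filter at the 60th percentile.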
